A study of Drosophila melanogaster with 2 samples.

Results

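Larval plasmatocytes of w1118 flies fell mainly into a pair of groups, cluster 3 and cluster 1, in the cluster numbers that the authors deposited for the circulating hemocytes, and the cells of cluster 3 were set against those of cluster 1 across all genes. The members were the cells whose annotation gives the genotype w1118 and cluster 3 (43 cells) or cluster 1 (52 cells), out of 127 annotated w1118 cells and 380 circulating cells with a genotype. The circulating wells numbered 384 and all wells of the series 463. One cell of cluster 3 had 47.9% of its reads on mitochondrial genes and was left out, so that 42 cells of cluster 3 and 52 cells of cluster 1 were compared.

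The study compared hemocytes of control larvae with those of larvae in which the salivary glands carry a tumor. The w1118 larvae, labelled w1118 with BeadexMS1096-Gal4, carry the driver and no oncogene, whereas in the RasV12 larvae, used below only beside the w1118 values, the same driver expresses UAS-RasV12 in the salivary gland. Cells were selected on Eater, a receptor of plasmatocytes for which an EaterDsRed reporter line is among the listed stocks, so that the level of eater is no finding. Hemocytes were bled together from several larvae of a genotype and sorted singly into a single 384-well plate, and each cell was sequenced on its own with Smart-seq2, which reads full-length cDNA and attaches no molecular identifiers. The sample's label names w1118 and the salivary gland, whereas its table holds circulating cells of 3 genotypes, so the genotype of each cell was taken from the deposited annotation. The deposited cluster numbers are not those of the paper. It describes its cluster 3 as circulating hemocytes of its tumor models, RasV12 and p35;RasV12 (RasV12 with the caspase inhibitor p35). The deposited cluster 3 held mostly w1118 cells. The age of the larvae from which the circulating cells came, and the sex of the larvae, are not given in the sources used here.

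Plasmatocytes are the macrophages of the fly. They take up bacteria and dying cells with receptors of the Nimrod and scavenger families, secrete collagen IV and other parts of basement membranes, and release Hemolectin, a clotting protein. In male cells the noncoding RNAs roX1 and roX2 guide the dosage compensation complex to the X chromosome, so that roX RNA is a mark of male cells, and the larva's molts are timed by the steroid ecdysone, which switches on nuclear receptors such as Hr4.

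All w1118 cells came from 1 pool of larvae, and the clusters were cut from the same counts that are described here. Cells are no replicates of a condition, so no test was run, no p-value is given, and every difference is a description of these cells. Levels are CPM, read counts scaled to the usual common total in every cell, or in every cluster where they are summed over its cells, and ratios are on the log2 scale with cluster 3 over cluster 1. A level in CPM is a share of the reads of a cell or cluster and says nothing about the amount of RNA in it.

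Depth was close in both clusters. Cells of cluster 3 held a median of 653586 reads (179141 to 1149704) and cells of cluster 1 one of 600751 reads (65948 to 991181), and the numbers of genes with a read had medians of 4563 and 4582. With each cell thinned to 400000 reads, which 39 cells of cluster 3 and 45 of cluster 1 reached, the medians were 4445 and 4575 genes. Mitochondrial genes took a median of 1.32% of reads in cluster 3 and 1.30% in cluster 1. One cell of cluster 3 stood apart, with 1810 genes where the next lowest cell had 3562, 7.11% mitochondrial reads and 19853 CPM of roX, and it is called the gene-poor cell below. The clusters were also spread unevenly over the plate, with 15 cells of cluster 3 and 5 of cluster 1 in plate columns 1 and 2, against 6 of cluster 3 and 20 of cluster 1 in columns 6 and 7. The part of the plate position in the differences was not tested beyond a repeat in columns 3 to 8, which held 27 cells of cluster 3 and 47 of cluster 1 and is given with the counts below.

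**Figure D1:**
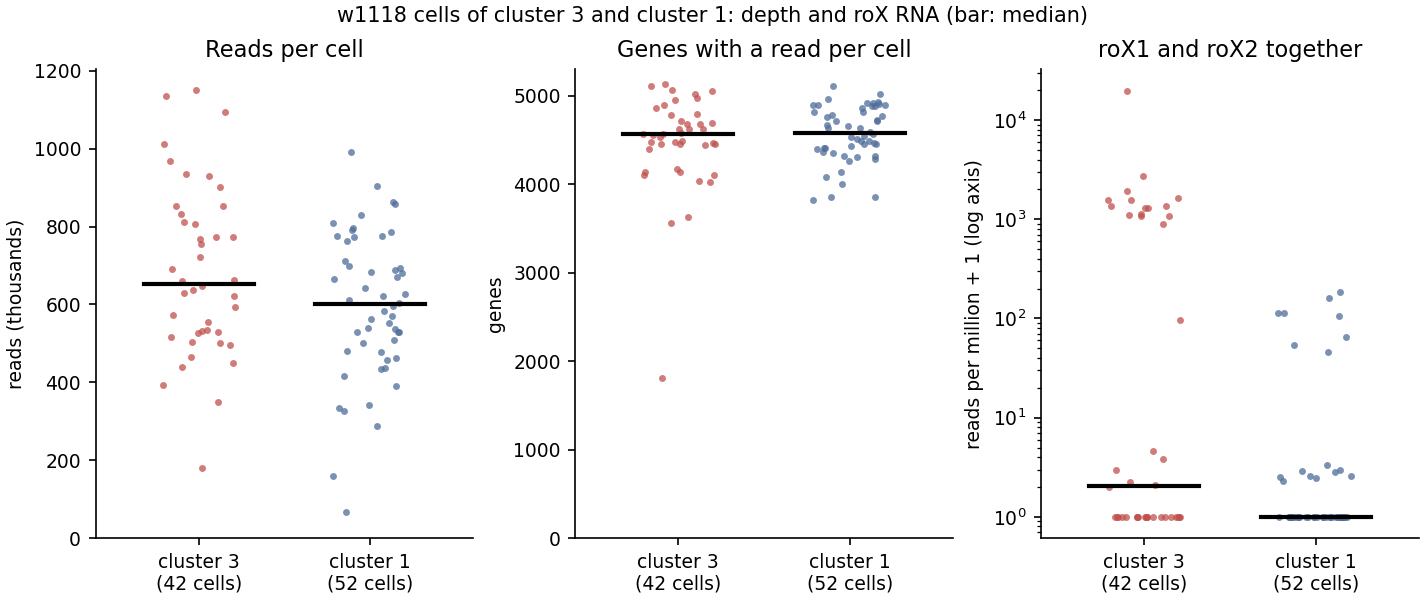
Reads per cell, genes with a read per cell, and roX1 and roX2 together as CPM plus 1 on a log axis, for the 42 cells of cluster 3 and the 52 cells of cluster 1 of w1118 (points: cells, bars: medians). Reads and genes overlap widely, the gene-poor cell lies at 1810 genes, and 15 cells, all in cluster 3, lie above 500 CPM of roX.

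The plasmatocyte label held in both clusters. All 10 markers of plasmatocytes (NimC1, Hml, eater, srp, Pxn, He, Col4a1, vkg, crq and Sr-CI) were read in at least 41 of 42 cells of cluster 3 and 51 of 52 cells of cluster 1, and together they made up 18453 CPM in cluster 3 and 12362 CPM in cluster 1. Crystal cells, which make the enzymes of melanization, were hardly represented. The crystal cell factor lz had no read in either cluster, and the 5 crystal cell markers summed to 113 CPM in cluster 3, 60.1% of it in 1 cell, and to 24.2 CPM in cluster 1. The 5 lamellocyte markers summed to 501 CPM in cluster 3 and 541 CPM in cluster 1, most of it from mys, an integrin chain that plasmatocytes also express. Of the others, atilla had 2 reads in each cluster, ItgaPS4 had 1 read in cluster 3 and 55 in cluster 1, and PPO3 had 3.86 and 20.1 CPM, from 7 cells of cluster 3 and 5 of cluster 1. The 8 fat body markers summed to 65.4 CPM in cluster 3 and 43.3 CPM in cluster 1, and among them Lsp1beta, a larval storage protein, had 688 reads in cluster 3 and 121 in cluster 1. The 10 salivary gland markers had no read in either cluster, which allows up to 0.104 CPM in cluster 3 and 0.0970 CPM in cluster 1. The part of crystal cell, lamellocyte and fat body RNA in other differences was not tested.

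In cluster 3 a larger share of reads came from the scavenger receptor Sr-CI, the inositol enzymes Miox and Inos, the clotting protein Hml and the matrix protein Ppn. A smaller share came from the ecdysone-induced Hr4 and MsrA, the small heat shock proteins Hsp23 and Hsp26, Reck and Jabba. Of 5637 genes counted, that is those with at least 10 CPM and a read in at least 25% of cells in the higher cluster, 284 (5.04%) were at least 2-fold higher and 136 (2.41%) at least 2-fold lower in cluster 3. The median log2 ratio of all genes counted was 0.11, and 61.2% of them lay above 0. The 12 genes described first in each direction had the largest and smallest ratios among genes with at least 50 CPM, a read in at least 50% of cells of the higher cluster and medians that differ in the same direction, and rarer genes with larger ratios follow with their lists. With TMM scaling, which shifts every log2 ratio by -0.11, the counts were 213 and 176, so that higher genes made up 54.8% of the genes past 2-fold in place of 67.6%. No gene separated the cells completely: in 0 of the higher genes was the lowest cell of cluster 3 above the highest of cluster 1, and in 0 of the lower genes the reverse. Of the 284 higher genes, 199 were under 50 CPM in cluster 3, and of the 136 lower genes 88 were under 50 CPM in cluster 1, so that most of these genes were rarely read. With the cell of most reads for each gene taken out of each cluster, 245 of 284 and 135 of 136 genes were still past 2-fold. Without the gene-poor cell the counts were 273 and 138, of which 263 and 127 were shared with those of all cells. In plate columns 3 to 8 the counts were 290 and 204, of which 190 and 108 were shared, that is 66.9% and 79.4% of the genes of all cells and 65.5% and 52.9% of those in these columns, and higher genes made up 58.7%.

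**Figure D2:**
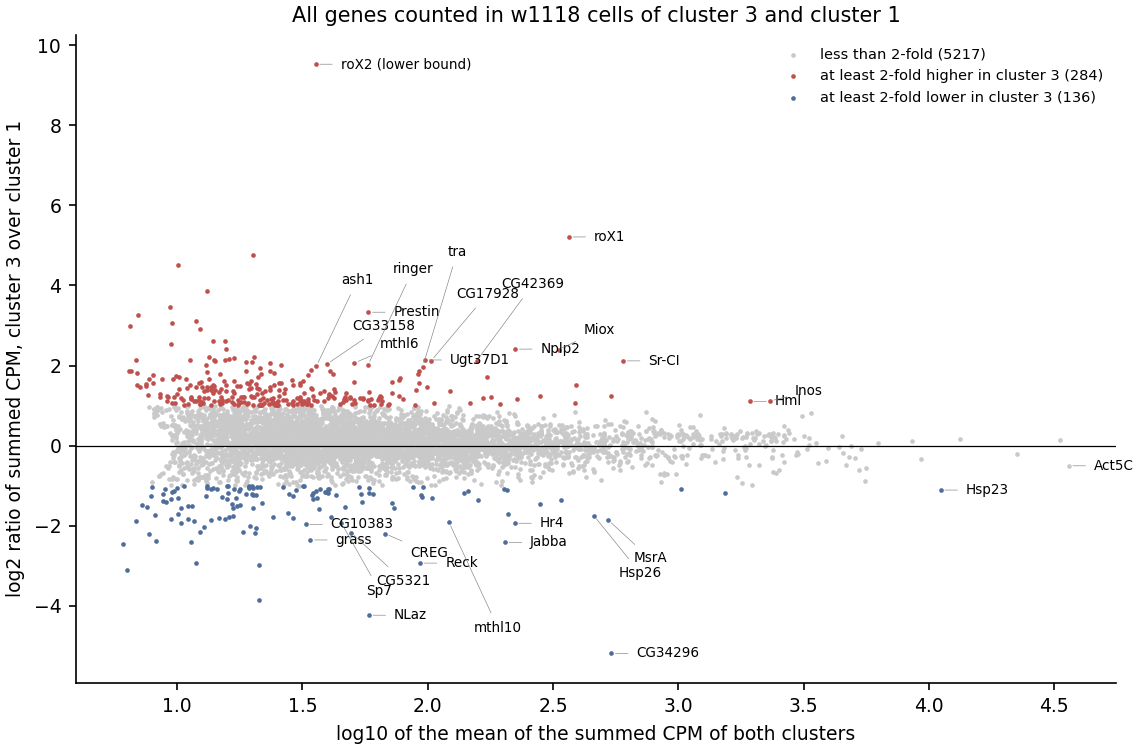
Log2 ratio of summed CPM, cluster 3 over cluster 1, against log10 of the mean of both levels, for the 5637 genes counted (points: genes). The 284 genes at least 2-fold higher and the 136 at least 2-fold lower lie mostly at low levels, roX1 stands at 5.21, CG34296 at -5.19, and the value of roX2 is a lower bound since cluster 1 has no read of it.

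Sr-CI, a scavenger receptor that binds bacteria and is encoded on chromosome arm 2L at 4121702 to 4124153 (Dm6, gene FBgn0014033), had the highest level in cluster 3 of these 12 higher genes. Its level per cell ran from 0 to 3004 CPM in cluster 3 with a median of 886 CPM, and from 0 to 1141 CPM in cluster 1 with a median of 152 CPM. The ranges overlapped, yet 39 of 42 cells of cluster 3 lay above the median of cluster 1, and 1 of 52 cells of cluster 1 lay above the median of cluster 3. Summed over cells the levels were 979.6 and 226 CPM, a log2 ratio of 2.12 with an exact counting interval of 2.08 to 2.15. Such intervals (95%, Clopper-Pearson on the reads of both clusters) cover counting error only, and reads copied by PCR from the same molecule make them too narrow.

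Both Miox and Inos, a pair of inositol enzymes picked out after their values were seen, were past 2-fold. Miox, the myo-inositol oxygenase that breaks inositol down (3L, 12184984 to 12187860), ran from 0 to 3203 CPM per cell in cluster 3 with a median of 425 CPM, and from 0 to 520.0 CPM in cluster 1 with a median of 38.4 CPM. Of the cells of cluster 3, 34 of 42 lay above the median of cluster 1, whereas 1 cell of cluster 1 lay above the median of cluster 3. The log2 ratio of summed levels was 2.40, and it was 2.06 among cells with little roX RNA, as defined below. Inos, the synthase that makes inositol phosphate from glucose phosphate, had 3170 CPM in cluster 3 and 1466 CPM in cluster 1, a log2 ratio of 1.11, with medians per cell of 2994 and 1227 CPM. It was read in every cell of both clusters.

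Nplp2, the precursor of a secreted peptide, was read in all 42 cells of cluster 3 and 49 of 52 of cluster 1, with medians of 229 CPM (1.80 to 2523) and 35.8 CPM (0 to 745) and a log2 ratio of 2.41. Its summed level differed within cluster 3, with 144 CPM in the 15 roX-high cells defined below and 505 CPM in the 27 others. Prestin, an anion transporter of the SLC26 family, was read in 24 of 42 cells of cluster 3 and in 4 of 52 of cluster 1, and its log2 ratio of 3.33 was 2.80 without the gene-poor cell, which held 31.8% of its reads in cluster 3. The glycosyltransferase gene Ugt37D1 (log2 ratio 2.14) and CG17928 (2.12) lie 5580 bases apart on the same strand of 2L, with 2 other genes between them. Ugt37D1 was read in 35 cells of cluster 3 and 28 of cluster 1 and CG17928 in 35 and 21, and across cells their levels had a Spearman correlation of 0.35 in cluster 3 (42 cells) and 0.46 in cluster 1 (52 cells). The cells of a cluster differ in depth and share a pool, so these correlations describe the cells and carry no test.

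CG42369 had 255 CPM in cluster 3 and 58.8 CPM in cluster 1, a log2 ratio of 2.12. The microtubule-binding ringer (2.01), mthl6 of the Methuselah family of receptors (2.06) and CG33158 (2.04) each had under 100 CPM in cluster 3, and mthl6 drew 34.2% of its reads in cluster 3 from 1 cell. For ash1, a histone methyltransferase of the Trithorax group, 49.0% of the reads in cluster 3 came from the gene-poor cell, and its log2 ratio of 1.98 was 1.03 without that cell and 0.98 among cells with little roX RNA, which leave it out too. The largest ratio among the 12 belonged to roX1 and is taken up with the roX RNAs.

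Hr4, a nuclear receptor that ecdysone induces, was the only one of the 12 lower genes so chosen that was read in every cell of cluster 1 (X, 1941940 to 2007956, FBgn0264562). It was read in 36 of 42 cells of cluster 3, with 0 to 798 CPM and a median of 23.1 CPM, and in 52 of 52 cells of cluster 1, with 34.5 to 871 CPM and a median of 347 CPM. In cluster 3, 4 cells lay above the median of cluster 1, while every cell of cluster 1 lay above the median of cluster 3. Summed levels were 91.9 and 352 CPM, a log2 ratio of -1.94.

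Reck, a membrane protein that in mammals inhibits matrix metalloproteinases, was read in 11 of 42 cells of cluster 3 and 42 of 52 of cluster 1, with medians of 0 and 138 CPM. Its log2 ratio was -2.93 and 2 cells of cluster 3 lay above the median of cluster 1. Jabba, which holds histones on lipid droplets, was read in 19 and 36 cells with summed levels of 64.1 and 343 CPM, a log2 ratio of -2.42. NLaz, a secreted lipocalin, was read in 7 cells of cluster 3 and 29 of cluster 1 and had a log2 ratio of -4.23 (5.87 and 110 CPM).

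CG34296 had the smallest ratio of all, -5.19, with 28.8 CPM in cluster 3 and 1051 CPM in cluster 1. It was read in 9 of 42 cells of cluster 3 and 35 of 52 of cluster 1, where single cells reached 8974 CPM against a median of 24.1 CPM, so that its level in cluster 1 was carried by a part of the cells. Its neighbour Pcd, 149 bases away on the same strand, had a log2 ratio of -0.80, and the levels of both had a Spearman correlation of 0.51 across the cells of cluster 1 and 0.16 across those of cluster 3.

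Of the remaining low genes, grass and Sp7 encode serine proteases of the Toll and melanization cascades. grass was read in 12 cells of cluster 3 and 33 of cluster 1 (11.1 and 56.9 CPM, log2 ratio -2.36), and Sp7 in 12 and 29 cells (18.7 and 71.8 CPM, log2 ratio -1.94). CREG, a secreted glycoprotein, had 24.2 CPM in cluster 3 and 111 CPM in cluster 1 (-2.20). CG5321 (-2.17) and CG10383 (-1.96) had under 100 CPM in both clusters. The receptor gene mthl10 was read in 26 cells of cluster 3 and 46 of cluster 1, with medians of 12.7 and 160.0 CPM and a log2 ratio of -1.91. MsrA, also known as Eip71CD, a methionine sulfoxide reductase that ecdysone induces, had 227 CPM in cluster 3 and 822 CPM in cluster 1 (-1.86). In cluster 3, 52.8% of its reads came from 1 cell, the medians were 10.3 and 359 CPM, and without the top cell of each cluster the log2 ratio was -2.80.

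**Figure D3:**
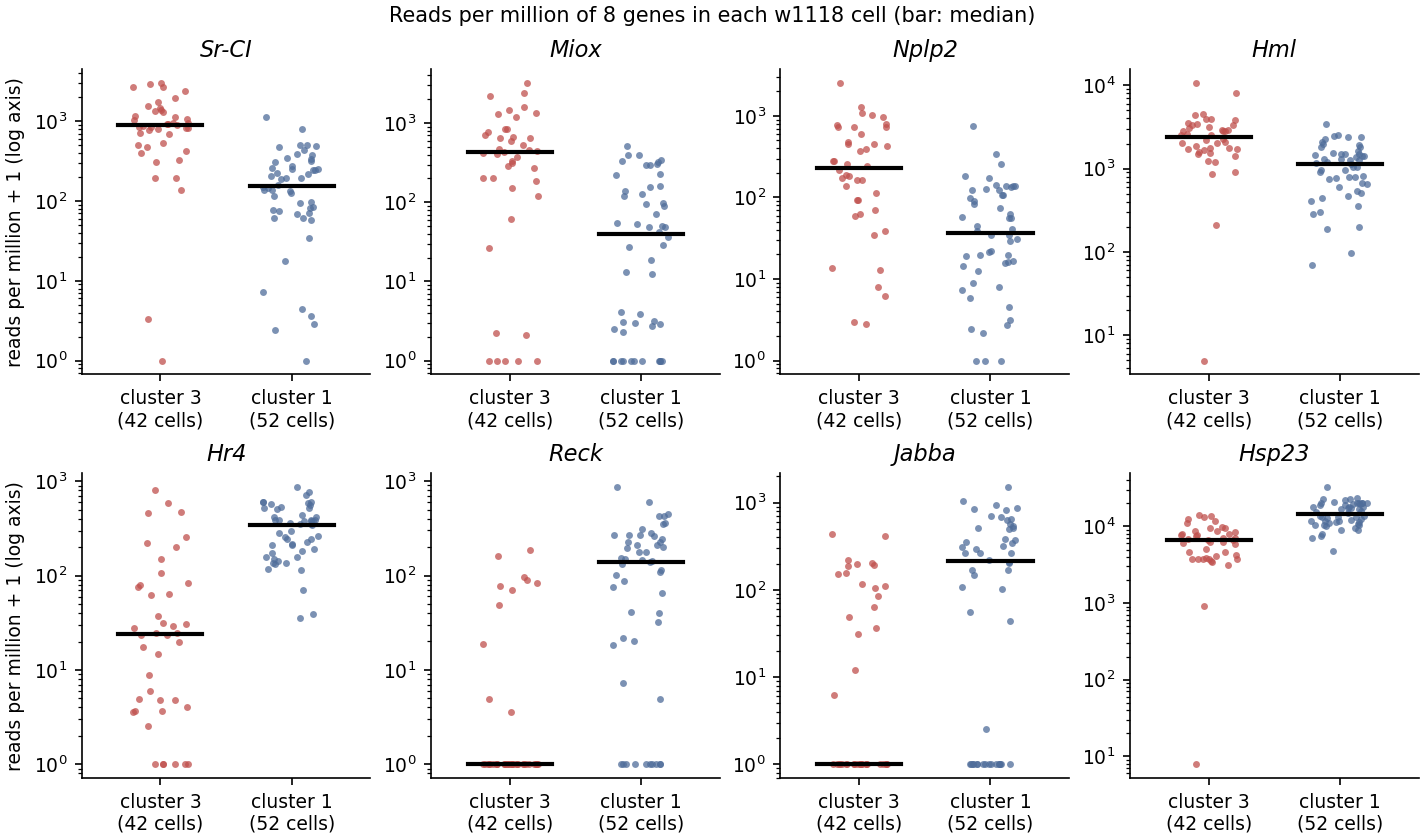
CPM plus 1 (log axis) of Sr-CI, Miox, Nplp2 and Hml, higher in cluster 3, and of Hr4, Reck, Jabba and Hsp23, lower in cluster 3, in each of 42 cells of cluster 3 and 52 cells of cluster 1 (points: cells, bars: medians). Medians of Sr-CI are 886 and 152 CPM and those of Hr4 23.1 and 347 CPM, and the ranges of all 8 genes overlap.

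The named genes were combined per cell as the mean log2(CPM + 1) of the 11 higher genes other than roX1 minus that of the 12 lower genes, which describes how the cells of each cluster spread on the genes that define the difference. The score had a median of 3.61 (-2.30 to 6.29) in cluster 3 and -2.06 (-5.63 to 1.93) in cluster 1. It was above 0 in 41 of 42 cells of cluster 3 and in 6 of 52 cells of cluster 1. A single cell of cluster 3 accounted for the low end: the next lowest cell was at 0.79, and 2 cells of cluster 1 reached that value, against 30 that reached -2.30. That cell, with 4448 genes and no roX read, had 138 CPM of Sr-CI and 471 CPM of Hr4, both nearer to the medians of cluster 1, but 643 CPM of Miox. Within a cluster, the Spearman correlation of the mean of the higher genes with that of the lower genes was 0.00 in cluster 3 and -0.03 in cluster 1. In w1118 cluster 4 (20 cells) it was -0.36. The clusters were cut from the same counts and the genes chosen for separating them. Values within a cluster therefore cannot tell whether the higher and the lower genes trade off. Between pairs of genes within a cluster, the median correlation was 0.07 among the higher and 0.01 among the lower genes in cluster 3, and 0.00 and 0.17 in cluster 1. The score had a correlation of -0.11 with reads per cell in cluster 3 and of -0.19 in cluster 1, and with genes per cell of 0.03 and -0.39, so that in cluster 1 the cells with more genes tended to have lower scores. The part of depth in the score was not tested.

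In the list of phagocytosis receptors, which also holds secreted Nimrods, the secreted NimB2 and the receptor NimC2 were past 2-fold in opposite directions. Of 13 members counted, 2 were at least 2-fold higher (the receptor Sr-CI and the secreted NimB2) and 1 was at least 2-fold lower (NimC2). The median log2 ratio was 0.29 beside 0.11 for all genes. Of all genes counted, 5.04% were at least 2-fold higher and 2.41% at least 2-fold lower. NimC2 had a median of 113 CPM (0 to 1051) in cluster 3 and 412 CPM (0 to 1776) in cluster 1 and a log2 ratio of -1.35, with 18.7% of its exon bases shared with another gene. NimC1, 3356 bases from it on 2L, had medians of 1601 and 1249 CPM and a log2 ratio of 0.29, which was -0.03 among cells with little roX RNA. Across cells, however, NimC1 and NimC2 were correlated with each other in both clusters, with a Spearman correlation of 0.58 in cluster 3 and 0.74 in cluster 1. The secreted Nimrods NimB2 (medians 97.5 and 34.0 CPM, log2 ratio 1.38) and NimB4 (949 and 532 CPM, log2 ratio 0.84) were on the high side. The CD36-like receptors crq (-0.29) and pes (-0.61), the engulfment receptor drpr (-0.42) and the peptidoglycan receptor PGRP-LC (-0.79) were on the low side, and none of these 4 passed 2-fold.

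Of the clotting and matrix lists, 1 gene each was past 2-fold, Hml and Ppn, where 5.04% of all genes were at least 2-fold higher. Hml, which encodes Hemolectin (3L, 13846054 to 13860001), had a median of 2376 CPM (3.98 to 10604) in cluster 3 and 1146 CPM (68.8 to 3429) in cluster 1. In cluster 3, 38 of 42 cells lay above the median of cluster 1, and 3 of 52 cells of cluster 1 lay above that of cluster 3, with a log2 ratio of 1.11 that was 0.99 under TMM scaling. The chitinase-like growth factor Idgf6 had 3885 and 2339 CPM (0.73), Idgf2 had 55.2 and 28.5 CPM (0.95), and the 6 counted genes of clotting and chitinase-like factors had a median log2 ratio of 0.61, with 5 above 0. Of 12 matrix genes counted, 9 were above 0 (8 with TMM scaling) at a median of 0.47, where 61.2% of all genes were above 0. Ppn was the member past 2-fold, encoding the basement membrane protein Papilin, with medians of 392 CPM (3.60 to 2189) and 141 CPM (0 to 703) and a log2 ratio of 1.50. Pxn, encoding Peroxidasin, which crosslinks collagen IV, had medians of 4434 CPM (605 to 7669) in cluster 3 and 2371 CPM (546 to 4407) in cluster 1. For Pxn 40 of 42 cells of cluster 3 lay above the median of cluster 1 and 0 of 52 cells of cluster 1 above that of cluster 3, at a log2 ratio of 0.83. The neighbours Col4a1 (0.50) and vkg (0.44), the collagen IV chains, were correlated across cells at 0.59 in cluster 3 and 0.74 in cluster 1, while the laminins LanA (-0.10), LanB1 (0.04) and LanB2 (-0.23) lay near 0.

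Genes of actin, adhesion and motility were on the low side as a list. Of 33 counted, 6 lay above 0 (4 with TMM scaling), 0 were 2-fold higher and 1 was 2-fold lower, the median log2 ratio was -0.22, and the list summed to 72985 CPM in cluster 3 and 93387 CPM in cluster 1. Of all genes, 61.2% lay above 0, 5.04% were 2-fold higher and 2.41% 2-fold lower. Act5C, the cytoplasmic actin and the largest member, had a median of 28479 CPM (1599 to 58797) in cluster 3 and 42095 CPM (30448 to 60058) in cluster 1, with 4 cells of cluster 3 above the median of cluster 1 and every cell of cluster 1 above that of cluster 3. The bundling protein sn (Fascin) had 1266 and 2176 CPM (-0.78), and fax, a gene of axon guidance, 1237 and 2357 CPM (-0.93, and -1.04 with TMM scaling). The integrin chain if was the member past 2-fold (-2.16), read in 7 cells of cluster 3 and 31 of cluster 1. Members on the high side included WASp (0.80) and cher, the filamin (0.60).

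Ecdysone response genes had the lowest median of any list, -0.47 over 11 genes counted (-0.58 with TMM scaling). Of all genes, 5.04% were at least 2-fold higher and 2.41% at least 2-fold lower. In this list 0 genes were at least 2-fold higher and 3 at least 2-fold lower: Hr4, MsrA and the calcium-binding Eip63F-1 (-1.08). Eip63F-1 had no read in most cells of either cluster and was counted only through cluster 1, so its ratio rests on few cells. Besides these, Eip78C had medians of 91.5 CPM in cluster 3 and 147 CPM in cluster 1 (-0.77), Eip74EF a log2 ratio of -0.61 and Eip75B one of -0.47. br, the Broad transcription factor and the most abundant member, had 2118 and 2625 CPM (-0.31). The receptor subunits EcR (0.43) and usp (0.33) were on the high side, as was Cth (0.33), so that the list did not move as one.

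Among the chaperones, the small heat shock genes Hsp23 and Hsp26 were at least 2-fold lower in cluster 3. Hsp23 had a median of 6674 CPM (6.81 to 14174) in cluster 3 and 14453 CPM (4813 to 32919) in cluster 1, and 0 of 42 cells of cluster 3 lay above the median of cluster 1, against 51 of 52 cells of cluster 1 above that of cluster 3 (log2 ratio -1.11). Hsp26 had medians of 102 and 516 CPM (-1.75) while Hsp27, with summed levels of 1892 and 3027 CPM (-0.68), was not past 2-fold, and the 3 genes lie within a stretch of 3L. Hsp23 and Hsp27 were correlated across cells at 0.60 in cluster 3 and 0.53 in cluster 1. Of 11 cytosolic chaperones counted, 0 were 2-fold higher and 2 were 2-fold lower, and the median was -0.18. Of all genes, 5.04% were 2-fold higher and 2.41% 2-fold lower. Hsp83 (-0.18) and Hsc70-4 (-0.03), chaperones of all cells, lay near 0, the Hsp70 genes had at most 9 reads each in either cluster, and the mitochondrial Hsp60A was at 0.42.

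Ribosome assembly and translation genes stood on the other side, to be read beside 61.2% of all genes above 0 and 5.04% at least 2-fold higher. The 84 cytosolic ribosomal protein genes counted all had log2 ratios above 0 (82 with TMM scaling), with a median of 0.27 and sums of 117916 CPM in cluster 3 and 98866 CPM in cluster 1, and 1 of them, RpL24-like, was past 2-fold (1.16). A list of nucleolar and ribosome assembly genes, which was drawn up after this was seen and is no independent support, had all 24 of its counted genes above 0, under TMM scaling too, with 10 at least 2-fold higher (9 with TMM scaling), 0 lower and a median of 0.89. It summed to 1949 CPM in cluster 3 and 964 CPM in cluster 1. Its members included Non1, a nucleolar GTPase, with medians of 295 CPM (0 to 2723) and 140.0 CPM (6.26 to 526) and a log2 ratio of 1.24, and Tsr1, of the small subunit, with medians of 80.5 and 22.1 CPM (1.56), 19.4% of whose exon bases are shared with another gene. NHP2 (2.02), the RNA polymerase I subunit Polr1A (1.88) and Nop56 of the box C/D particles (1.05) were others. Nuclear genes of the respiratory chain had 56 of 61 above 0 (45 with TMM scaling) and a median of 0.24, and the 15 counted genes of the mitochondrial genome a median of 0.21.

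Markers of dividing cells were on the high side at low levels. Of 15 counted, all were above 0 (14 with TMM scaling), 5 were at least 2-fold higher (Incenp, Mcm6, fzy, Cdk1 and PCNA, the last at 0.99 with TMM scaling), 0 were lower, and the median log2 ratio was 0.71. Of all genes counted, 61.2% lay above 0 and 5.04% were at least 2-fold higher. Incenp, Mcm6, fzy and PCNA were under 10 CPM in cluster 1 and were counted only through cluster 3. The limit for counting therefore partly sets this tally. Of the 7 markers below the limit, stg was at -1.60 and the others were above 0. Incenp, of the chromosomal passenger complex, was read in 20 of 42 cells of cluster 3 and 8 of 52 of cluster 1 (3.87), Cdk1 in 23 and 20 cells (31.2 and 12.5 CPM), and PCNA in 22 and 8 cells. The mitotic cyclin CycB was below the limit for counting, with reads in 3 and 4 cells. No gene of the list reached 200 CPM in cluster 3. All 22 markers together had a median per cell of 478 CPM (140 to 1774) in cluster 3 and 354 CPM (112 to 1872) in cluster 1, and the ranges overlapped almost wholly.

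Further lists held few genes past 2-fold, to be read beside 5.04% of all genes that were higher and 2.41% that were lower. Of all genes, 61.2% lay above 0. In glycolysis 2 of 11 were higher, Ald1 (medians 111 and 31.1 CPM, 1.78) and Pglym78 (1.14), and Gapdh1 was at -0.48, with a list median of 0.15. Among redox enzymes 1 of 13 was higher, Prx2 (76.6 and 25.3 CPM, 1.60), and catalase (Cat) was at -0.48. Among Notch and fate factors the receptor N was higher (1.70), with 28.6% of its reads in cluster 3 in 1 cell and 1.24 without the gene-poor cell, while srp, the GATA factor of all hemocytes, had 1227 and 1221 CPM (0.01) and its partner ush was at -0.64. In the JAK/STAT pathway Socs36E, an inhibitor that the pathway induces, was lower (-2.15) and Stat92E was at 0.72. The 17 Toll and Imd components had none past 2-fold and a median of 0.00, and the 17 antimicrobial peptide genes were all below the limit, at 0.452 and 0.550 CPM in sum. In iron handling Tsf3 was lower (-1.24), and Mvl, a metal transporter, at -0.72. Of 16 growth factor signalling genes chico, of insulin signalling, was higher (1.04, and 0.35 without the gene-poor cell). Of 16 subunits of the vacuolar ATPase 15 lay below 0, with a median of -0.14 and VhaM9.7-c past 2-fold (-1.47). Among 8 immediate early genes Atf3 was higher (1.14, and 0.98 without the gene-poor cell). Of the genes that lead named states of larval plasmatocytes in other work, Inos (1.11) and Lsp1beta (2.61) were higher, robo2 was lower (-1.88, with 41.0% of its exon bases shared with another gene), and Pcd was at -0.80 and vir-1 at -0.02. Of growth factor, lysosome, thioester-containing protein and endoplasmic reticulum genes, none other than chico passed 2-fold.

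**Figure D4:**
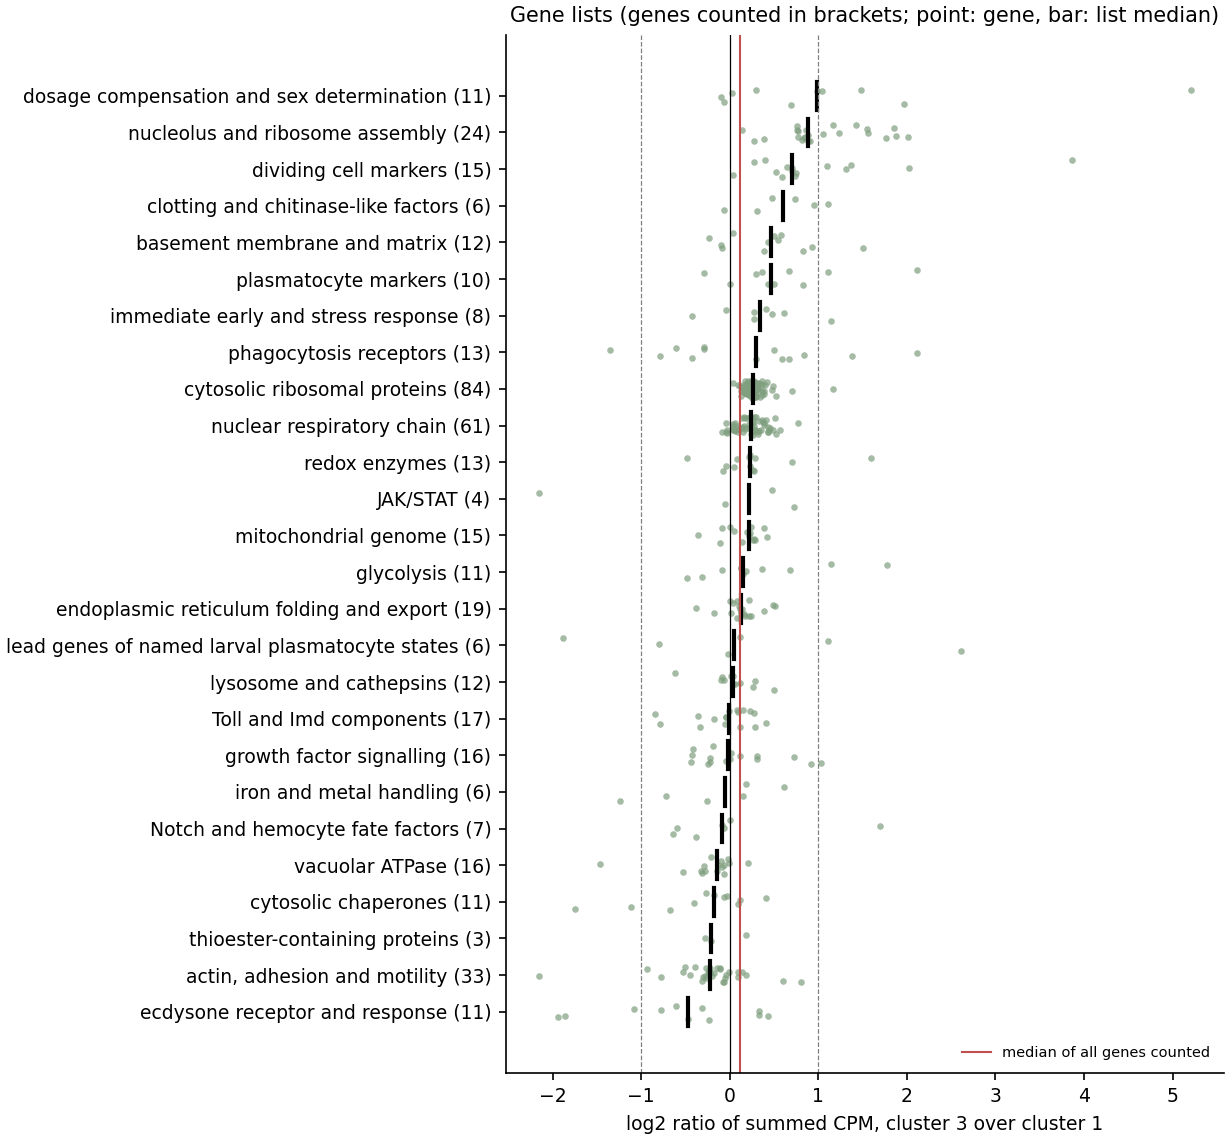
Log2 ratio of summed CPM, cluster 3 over cluster 1, of each counted gene (points) in the lists with at least 3 counted genes, with the list median (black bar), the median of all 5637 genes (red line, 0.11) and 2-fold (dashed lines). Dosage compensation (median 0.99, and 0.33 among cells with little roX RNA) and nucleolus and ribosome assembly (0.89) lie at the high end and ecdysone response (-0.47) at the low end, the ribosomal proteins form a tight group at 0.27, and roX2 is not drawn.

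roX RNA separated a part of cluster 3 from all of cluster 1. Of 42 cells of cluster 3, 15 had at least 500 CPM of roX1 and roX2 together (35.7%, exact 95% interval 21.6% to 52.0%), with values of 892 to 19853 CPM and a median of 1353 CPM, and the other 27 had at most 95.9 CPM. In cluster 1, 0 of 52 cells reached 500 CPM (exact interval up to 6.85%), and the highest had 183 CPM. Both intervals treat cells as independent draws, which cells of 1 pool cut into clusters are not. The limit of 500 CPM was also set after seeing the data, so the intervals measure no spread between larvae or pools. Summed over cells the levels were 784 and 19.2 CPM, a log2 ratio of 5.35, and without the gene-poor cell, which held 38.8% of these reads, cluster 3 had 487 CPM. roX1 (X, 3857230 to 3862697, with 7.17% of its exon bases shared with another gene) was read in 22 cells of cluster 3 and 17 of cluster 1. roX2 was read in 15 cells of cluster 3 and had no read in cluster 1, so that its log2 ratio was at least 9.52 with a floor of 3 reads for the cluster.

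The comparison of the clusters was repeated without the roX-high cells. With the 27 cells of cluster 3 under 500 CPM against the 52 of cluster 1, 342 of 5634 genes (6.07%) were at least 2-fold higher and 179 (3.18%) at least 2-fold lower. Of the 284 genes higher over all cells 211 (74.3%) were among them, and 283 had a ratio above 0, and of the 136 lower genes 97 (71.3%) were among them and all 136 were below 0. The overlap made up 61.7% of the 342 and 54.2% of the 179. Both comparisons share the cells of cluster 1 and 27 cells of cluster 3, so the overlap and the kept directions were largely set in advance. The part of roX status in the difference was not tested. Sr-CI had a log2 ratio of 1.92, Nplp2 one of 2.83 (2.41 over all cells), Hr4 one of -1.59 and Hsp23 one of -1.03 among these cells, whereas roX1 was at -2.48. Within cluster 3 the score of the named genes had a median of 3.60 in the 15 roX-high cells and 3.62 in the 27 others. Its genes were chosen over all cells of cluster 3, both kinds included.

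Genes of dosage compensation and sex determination were 5 of 11 at least 2-fold higher and 0 lower: both roX RNAs, msl-3, mof (0.93 with TMM scaling) and tra. Of all genes counted, 5.04% were at least 2-fold higher. The list median was 0.99 over all cells and 0.33 among cells with little roX RNA. tra, which directs female development through splicing, had medians of 100.3 CPM (0 to 1308) in cluster 3 and 31.9 CPM (0 to 155) in cluster 1 and a log2 ratio of 1.96, which was 2.06 among cells with little roX RNA; 8.58% of its exon bases are shared with another gene. msl-2, whose protein is made in males, was at 0.99 over all cells and at 0.27 among cells with little roX RNA, and Sxl, the female switch gene, at -0.10 and 0.26. Of genes counted, 16.9% lay on the X chromosome, against 18.3% of those higher and 8.82% of those lower in cluster 3, and the median log2 ratio was 0.13 on the X and 0.09 to 0.14 on the large autosome arms.

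For many of these genes cluster 3 lay between cluster 1 and the other w1118 cells, of which 20 were in cluster 4, 8 in cluster 0 and 3 in cluster 2. Sr-CI had 2853 CPM in cluster 4 and 4562 CPM in cluster 0, Hml 5184 and 11012 CPM, Ppn 2267 and 6479 CPM, and Miox 1639 and 704 CPM, all above cluster 3. Hr4 had 4.30 CPM in cluster 4 and 2.12 CPM in cluster 0, Reck 0.0754 and 2.71 CPM, and Hsp23 1754 and 503 CPM, all below cluster 3. Of the 11 higher named genes other than roX1, 8 were higher still in cluster 4, and of the 12 lower ones 11 were lower still. Among the 284 higher genes, 174 (61.3%) were above cluster 3 in cluster 4 and 268 (94.4%) above cluster 1, where all genes counted gave 54.4% and 60.1%. Among the 136 lower genes, 77 (56.6%) were below cluster 3 in cluster 4 and 122 (89.7%) below cluster 1, where all genes gave 45.6% and 39.9%. These genes were chosen for their levels in clusters 3 and 1, so their place against either cluster is partly set by that choice. The shares of all genes are therefore no fair baseline, and no conclusion is drawn from the gap. The score had a median of 5.77 in cluster 4 and 6.97 in cluster 0. These clusters were cut together from the same counts, so the order describes the clustering as well as the cells.

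**Figure D5:**
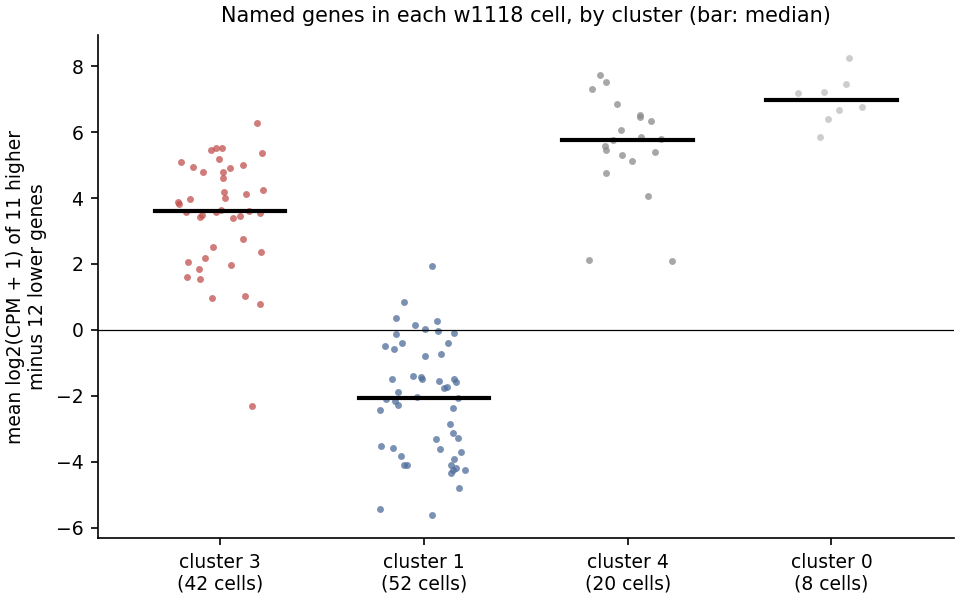
Mean log2(CPM + 1) of the 11 higher named genes minus that of the 12 lower ones in each w1118 cell of cluster 3 (42 cells), cluster 1 (52), cluster 4 (20) and cluster 0 (8), with medians as bars. The medians are 3.61, -2.06, 5.77 and 6.97, and 1 cell of cluster 3 lies at -2.30 within the range of cluster 1.

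Since roX-high cells occurred in cluster 3 and cluster 4, these were set against each other at like roX: 15 roX-high cells of cluster 3 over 16 of cluster 4, which share no cell with the roX-low comparison. Of 5837 genes counted, 475 (8.14%) were at least 2-fold higher and 820 (14%) at least 2-fold lower in cluster 3. Genes that were higher in cluster 3 over cluster 1 among roX-low cells were mostly lower here: of 314 counted in both, 68 were above 0, with a median log2 ratio of -0.72. Of 144 genes that were lower there, 56 were below 0, with a median of 0.48. Over all genes counted in both, 43.1% lay above 0 and the median was -0.10. Sr-CI was at -1.17 and Miox at -1.06, while Hr4 was at 3.36 and Hsp23 at 1.90.

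The cells of cluster 1 from RasV12 larvae, 32 in number, lay on the side of w1118 cluster 1 in the named genes. Their score had a median of -3.18 (-5.97 to 0.41), below that of both w1118 clusters. All 11 higher named genes were lower in them than in w1118 cluster 3, and all 12 lower named genes were higher. Of the 284 higher genes 274 (96.5%) were below w1118 cluster 3, where all genes gave 62.6%, and of the 136 lower genes 122 (89.7%) were above it, where all genes gave 37.4%. The same clustering put these cells with w1118 cluster 1, and the genes were chosen for separating clusters 3 and 1. This outcome was therefore largely fixed in advance and is no separate support. Cluster 3 held 1 cell of RasV12 and none of p35;RasV12, so that the pair of clusters could not be compared in another genotype.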

How the data were processed

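Single circulating hemocytes were processed with Smart-seq2 and read from one end. The authors aligned the reads to Dm6 (r6.37) with STAR 2.7.2 and deposited, for 17612 genes, raw counts made with featureCounts 2.0.0 under default settings, which use no strand and leave out reads that fall on several genes. The authors also deposited an annotation with genotype, cluster number (Seurat, resolution 0.5) and a percent of mitochondrial reads, which is 0 in every cell and was recomputed here from 37 mitochondrial genes. Gene names matched 17549 identifiers. Wells without annotation (3) were not used.

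A cell was kept if it had 200 genes or more and no more than 10% of its reads on the mitochondrial genome. No doublet caller was run, since cells were sorted singly. The paper also states a stricter filter, at most 5% mitochondrial reads and 200 to 4000 genes, with cells above that taken as possible doublets. That filter would leave 2 of the cells of cluster 3 and 3 of cluster 1. Counts were summed per cluster and divided by the cluster total, and a cluster at 0 reads was set to 3 reads. Called means at least 2-fold. Named genes were the 12 largest and 12 smallest ratios among genes with at least 50 CPM, a read in at least 50% of cells of the higher cluster and medians of the same sign of difference, the roX RNAs, the cell type markers, and per list up to 3 members in each direction and any past 2-fold. Members and lists were chosen with earlier results of these data known. The nucleolar list, the limit of 500 CPM for roX, the comparison with cluster 4, the plate columns and the repeat without the gene-poor cell were chosen after seeing the data. In the lists, zip, Hop, Lamp2, Dl and Ltv1 were not matched by these spellings. Scripts were tested on simulated data. TMM factors came from edgeR 4.0.16, run in R 4.3.3, and all else from Python 3.11.15 (scipy 1.17.1, pandas 2.3.3, numpy 2.4.6), with figures by matplotlib 3.10.9.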

Additional observations from a re-analysis of the deposited data

How the results depend on the processing

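The counts of genes at least 2-fold higher and lower in cluster 3, 284 and 136, were within 1.5 times under the mean over cells, TMM factors (213 and 176), thinning, a common range of depth, totals without mitochondrial and rRNA genes, no filter on cells, leaving out the cell with most reads, the gene-poor cell, roX-high cells or plate columns 1 and 2. The genes behind these counts changed more than the counts. In the common range of depth, 62.3% of the higher and 60% of the lower genes were among those of all cells, and after thinning 74.5% and 79.3%. The counts were 7 and 10 as differences of means of ln values. They were 85 and 48 of 3088 genes with at least 50 CPM, and 1326 and 951 of 8840 genes with no filter on low values. They were 979 and 634 among cells with at least 100 CPM of roX (15 and 5 cells), 1954 and 1525 with at most 5% mitochondrial reads and 200 to 4000 genes (2 and 3 cells), 3513 and 491 between RasV12 cells (1 and 32 cells), and 475 and 820 for roX-high cells of cluster 3 over cluster 4. The log2 ratio of reads per cell was -4.91 between RasV12 cells, where it was 0.12 in w1118. The log2 ratio of roX was 0.61 under the strict filter and 3.53 between RasV12 cells.

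Directions turned mainly where few cells were left. With 2 and 3 cells, CG42369 was at -0.14, ash1 at -1.85, Hr4 at 0.54, Sp7 at 1.61, Hml at -3.68, fzy at -2.71, PCNA at -3.27, NimC2 at 2.23, Ppn at -5.00, Ald1 at -3.78, Atf3 at -1.20, VhaM9.7-c at 2.71, chico at -2.63, Inos at -4.92, robo2 at 0.052 and the median of the fat body markers at -0.39. Between RasV12 cells, Sr-CI was at -1.80, CG34296 at 0.74, NLaz at 0.30, Reck at 1.42, grass at 2.03, CG5321 at 1.12, CG10383 at 1.46, Hr4 at 1.14, Sp7 at 1.23, if at 0.21, VhaM9.7-c at 2.66, Eip63F-1 at 8.34, Tsf3 at 1.92, Socs36E at 2.66, robo2 at 0.57, Nop56 at -0.45 and Non1 at -1.89. Among cells with at least 100 CPM of roX, PCNA was at -0.079 and VhaM9.7-c at 0.34. roX1 was at -0.34 among cells under 100 CPM of roX and at -2.48 under 500 CPM, and chico at -0.25 in plate columns 3 to 8. The values between RasV12 cells rest on 1 cell of cluster 3, which had far fewer reads than the RasV12 cells of cluster 1. The cause of these turns was not tested.

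No paired analysis was possible because all cells came from 1 pool and no replicate pool was used here. Rarely read genes carry most of the counts past 2-fold, and the spread between pools of larvae is unknown.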

Other observations

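Some genes in no list separated the cells about as well as the named ones, and were chosen after their values were seen. Eb1, which binds the growing ends of microtubules, had 659 CPM in cluster 3 and 1395 CPM in cluster 1, a log2 ratio of -1.08, and 1 of 42 cells of cluster 3 lay above the median of cluster 1. firl had 939.8 and 2126 CPM (-1.18), with 0 of 42 cells of cluster 3 above the median of cluster 1 and 51 of 52 cells of cluster 1 above that of cluster 3. Its level was 496 CPM in w1118 cluster 4 and 2972 CPM in RasV12 cluster 1. The glucose transporter gene Glut1 had 59.7 and 148 CPM (-1.31). Genes of the cytochrome P450 family went both ways, with Cyp4ac1 at 145 CPM in cluster 3 and 39.5 CPM in cluster 1 (1.87) and Cyp12c1 at 98.0 and 319.7 CPM (-1.71). Ance-5, of the angiotensin-converting enzyme family, had 757 and 321 CPM (1.24), and corn had 265 and 80.3 CPM (1.72).

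The single RasV12 cell of cluster 3 had a score of -2.85, within the range of w1118 cluster 1. This cell had far fewer reads than the RasV12 cells of cluster 1, and the part of its low depth in the score was not tested. The gene-poor cell of w1118 cluster 3 had 10604 CPM of Hml, the highest of that cluster, beside 2.27 CPM of Sr-CI, 6.81 CPM of Hsp23, 1599 CPM of Act5C, 25473 CPM of Sap-r and 45390 CPM of the mitochondrial mt:lrRNA.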
